A study of Mus musculus with 12 samples.

Results

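Selenoproteins are enzymes and carriers that hold the amino acid selenocysteine, and 8 genes of this family (Gpx1, Gpx3, Sepp1, Sepw1, Selt, Sephs2, Dio1 and Txnrd2) were followed in whole mouse kidney. They were taken from the deposited expression table by their symbols, which are the older ones: Sepp1, Sepw1 and Selt are now called Selenop, Selenow and Selenot. The table has 22053 rows, and 24 genes in it have an annotated selenocysteine codon. All 8 genes were found, and all 8 passed the filter on low values that left 13148 genes for testing. RNA sequencing was performed on 12 C57BL/6 mice, 4 per group, with 1 library per mouse. CKD mice received a 0.2% adenine diet from 8 to 16 weeks of age and weekly i.p. PBS. CKD+Fe mice were fed adenine likewise and were given iron dextran i.p. each week in place of PBS, at a dose of 0.5 g/kg. Control mice received the diet without adenine and weekly i.p. PBS, and were of the same age. Adenine feeding is a dietary model of tubulointerstitial kidney disease, and no group carries a transgene.

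Selenocysteine is inserted at a UGA codon, which elsewhere ends translation. Reading through it needs a hairpin in the 3′ untranslated region of the mRNA, a protein that binds the hairpin, and a dedicated elongation factor. Several members of the family are typical of the kidney. The proximal tubule makes most of the glutathione peroxidase of plasma (Gpx3) and takes up selenoprotein P (Sepp1), the plasma carrier of selenium, through the endocytic receptor megalin (Lrp2). It also holds type 1 deiodinase (Dio1), which converts thyroxine to the active thyroid hormone.

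The codon that defines each gene is shown here because it is the feature the 8 genes share. Each line gives the coding strand around the first selenocysteine codon, 5′ to 3′, read from the spliced transcript in GENCODE M21, which is annotated on GRCm38. The selenocysteine codon is in capitals, with 12 coding bases on either side where the reading frame is long enough.
Gpx1: gtcgcgtctctcTGAggcaccacgatc
Gpx3: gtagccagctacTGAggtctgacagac
Sepp1: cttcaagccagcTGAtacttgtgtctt
Sepw1: tattgtggagctTGAggctataagccc
Selt: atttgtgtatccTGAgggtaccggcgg
Sephs2: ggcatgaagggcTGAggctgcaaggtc
Dio1: ggcagttgcaccTGAccttcatttctt
Txnrd2: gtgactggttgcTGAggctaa

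The position of the codon differs between the genes. In Txnrd2 it is codon 526 of 527, so only 1 codon lies between it and the stop codon, and the line above ends there. In Sepw1 it is codon 13 of 88, in Gpx1 codon 47 of 201, in Selt codon 49 of 195 and in Sephs2 codon 63 of 452. In Gpx3 it is codon 73 of 226 and in Dio1 codon 126 of 257. Sepp1 is the exception in number. It has 10 selenocysteine codons, the first at codon 59 and the last at codon 377 of 380. The genes lie on separate chromosomes except Sepw1 and Sephs2. On GRCm38, Gpx1 is at chr9:108338903-108340343 and Gpx3 at chr11:54902453-54910377, both on the plus strand. Sepp1 is at chr15:3268547-3280508, Selt at chr3:58576636-58593133 and Txnrd2 at chr16:18426384-18479073, also on the plus strand. Sepw1 is at chr7:15917208-15922402, Sephs2 at chr7:127271879-127274055 and Dio1 at chr4:107291465-107307169, on the minus strand. Sephs2 has 1 exon and Txnrd2 has 18. No other transcript on the same strand shared 50 or more bases with a member at 95% identity or more.

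The tissue was checked by markers of kidney and other cell types. The summed level of 10 proximal tubule markers was 7464 to 9508 FPKM in the control group, against 1102 to 2113 FPKM under CKD and 1103 to 2840 FPKM under CKD+Fe. FPKM are fragments counted per kilobase of a transcript and scaled to the mapped reads of the mouse. The sum of 8 macrophage markers was 373 to 696 FPKM in the control group, against 2339 to 5259 FPKM under CKD and 2385 to 4691 FPKM under CKD+Fe. In each group 1 mouse stood apart over all genes tested: control mouse 042301, CKD mouse 110310 and CKD+Fe mouse 042702. The root mean square difference in log2(FPKM + 1) between 2 mice of a group was 0.44 to 0.62 for pairs with that mouse and 0.25 to 0.41 for pairs without it. These 3 mice also had the highest macrophage marker sum of their group (696, 5259 and 4691 FPKM) and the highest sum of 7 erythroid markers (121, 118 and 51.3 FPKM), 1 of which, Slc4a1, is also a collecting duct marker. Other marker sums set these mice apart differently. Control mouse 042301 had the highest collecting duct (1157 FPKM, group median 397) and urothelium and papilla (135, median 26.8) sums. Its proximal tubule sum was the lowest (7464). CKD mouse 110310 had the highest collecting duct (370) and fibroblast and matrix (945, median 486) sums. CKD+Fe mouse 042702 had the lowest collecting duct (204) and proximal tubule (1103) sums. What set the 3 mice apart was not tested. Single reads leave visible steps in the low values, from which the depth was estimated at 20400000 to 30500000 reads per mouse. For Txnrd2, the member with the lowest estimate (553 reads), counting error would be 4.25%, well below the spread between mice.

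The 8 transcripts covered a wide range of levels, and Gpx3 dominated them. In control mice Gpx3 averaged 43345 ± 5657 FPKM (SD, n = 4), followed by Sepp1 at 7424 ± 2730, Gpx1 at 4937 ± 495, Sephs2 at 402 ± 68.8, Selt at 288 ± 126, Sepw1 at 115 ± 34.5, Txnrd2 at 35.6 ± 16.6 and Dio1 at 32.2 ± 5.70 FPKM. Of the neighbours in this order, only Gpx3 and Sepp1, Gpx1 and Sephs2, and Sepw1 and Txnrd2 had control ranges that did not overlap. Gpx3 was the second most abundant transcript in each of the 4 control mice and held 6.71% ± 1.14 of the table total. In the CKD group Sephs2 (153 ± 41.8 FPKM) fell below Selt (260 ± 83.1) and Sepw1 (246 ± 138), although Sepw1 was above Sephs2 in only 2 of 4 CKD mice, and in all 4 CKD+Fe mice. Gpx3 ranked first in 3 of 4 CKD mice and in all 4 CKD+Fe mice, although its own level there was lower. The 8 genes together made up 8.77% ± 1.62 of the table total in the control group, 5.40% ± 0.906 under CKD and 6.02% ± 1.38 under CKD+Fe. Gpx3 alone was 76.8% ± 3.58 of that sum in the control group, 78.9% ± 4.45 under CKD and 80.4% ± 3.97 under CKD+Fe.

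**Figure D1:**
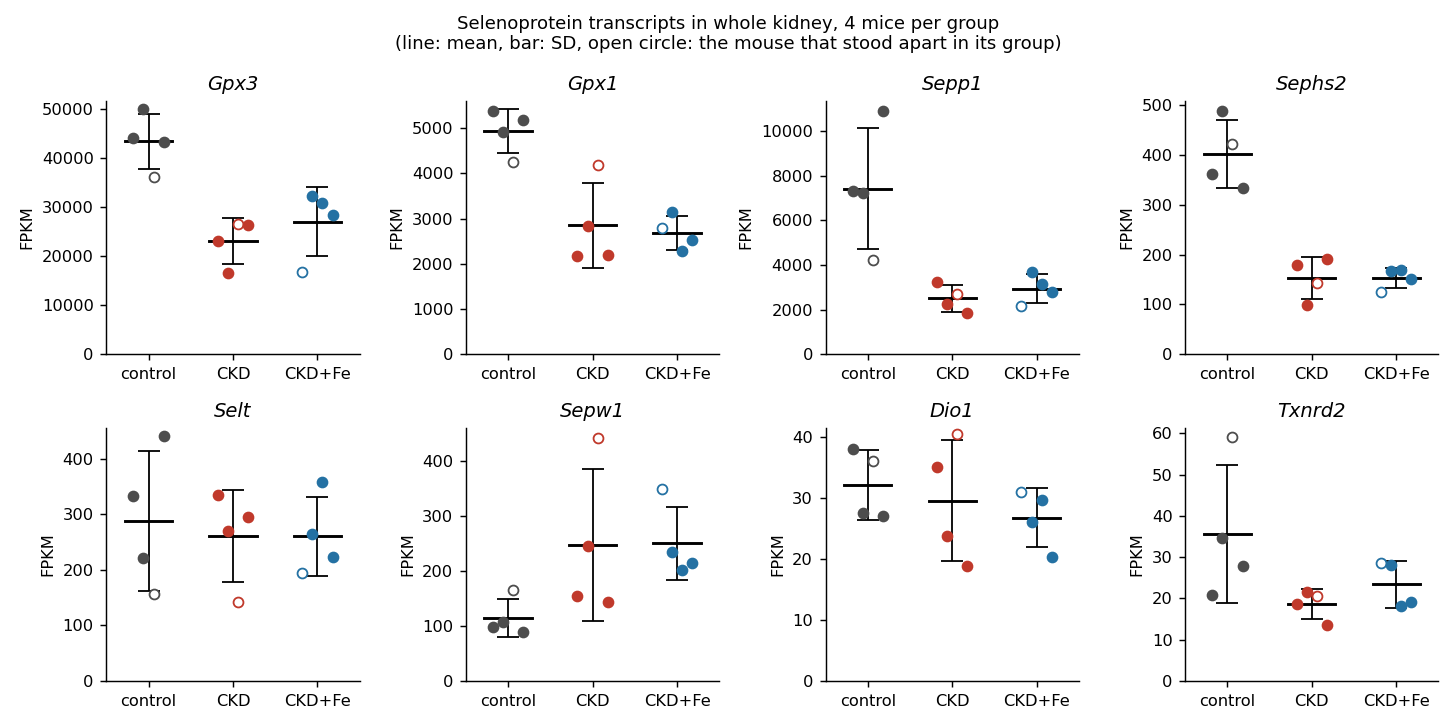
FPKM of each of the 8 selenoprotein transcripts (vertical axes, linear and starting at 0) in every mouse of the control, CKD and CKD+Fe groups (4 circles per group, line for the mean, bar for the SD, open circle for the mouse that stood apart). Gpx3, Gpx1, Sepp1 and Sephs2 sit lower in every CKD and CKD+Fe mouse than in any control mouse, Sepw1 sits higher in CKD+Fe mice, and the Selt and Dio1 groups overlap.

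CKD against control addresses which selenoprotein transcripts change in the diseased kidney. Of the 8 transcripts, 5 were lower in CKD (Sepp1, Sephs2, Gpx3, Gpx1 and Txnrd2), 1 was higher (Sepw1), and Selt and Dio1 did not pass the test. The test was limma on log2(FPKM + 1) with Benjamini-Hochberg adjustment over the 13148 genes and a threshold of 0.05. Over all genes tested, 13.3% were called lower and 54.6% were called higher. For 4 of the 8 transcripts every CKD mouse was below every control mouse, which held for 10.4% of all genes tested. No member was completely separated upward, as 44.6% of all genes were. The median log2 fold change was -0.83 over the 8 members and 0.50 over all genes, and 7 of the 8 lay below the latter. In whole tissue, fewer cells of a type and less RNA per cell cannot be told apart. Other cell type markers moved between the same groups, and their part in the changes was not tested. In CKD 9 of 10 proximal tubule and 3 of 5 collecting duct markers were lower, and 8 of 8 macrophage, 7 of 7 fibroblast and matrix and 6 of 6 tubule injury markers were higher. Of 5 thick limb and distal markers 1 was lower and 0 were higher, with a median log2 fold change of 0.45. Of 5 tested erythroid markers 1 was lower, and 6 of 6 urothelium and papilla markers did not pass.

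**Figure D2:**
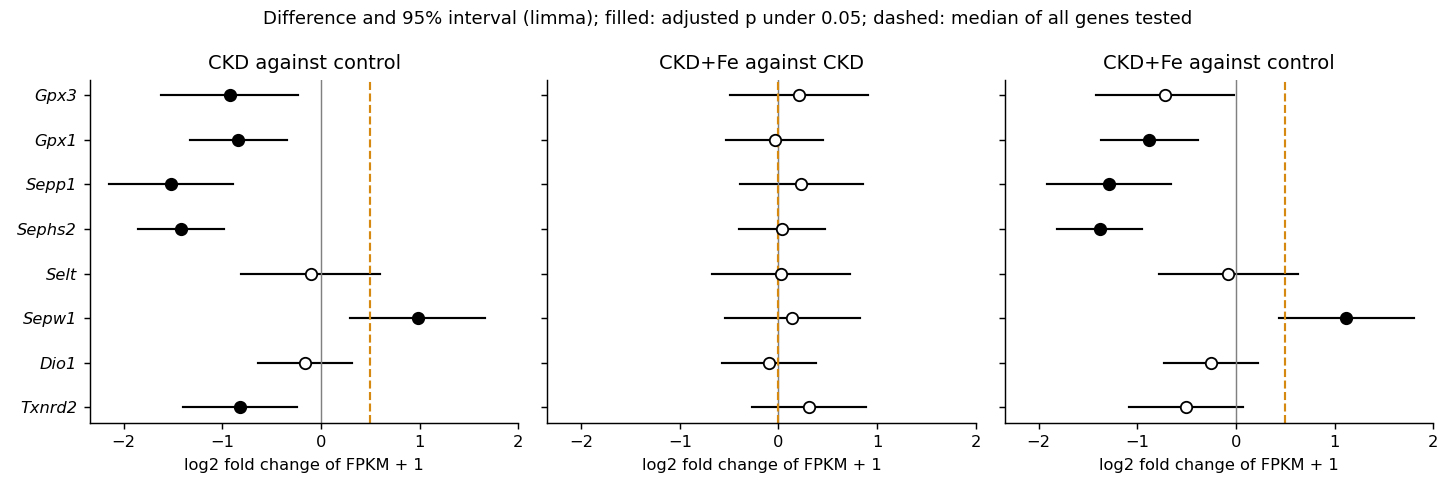
Log2 fold change of FPKM + 1 (horizontal axis) for each transcript in the 3 comparisons, with its 95% interval from limma (line), filled where the adjusted p is under 0.05. Against control, Sepp1, Sephs2 and Gpx1 lie left of 0 and Sepw1 right of 0 in both adenine groups. In CKD+Fe against CKD all 8 intervals include 0. The dashed line is the median of all genes tested (0.50, -0.001 and 0.50).

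The glutathione peroxidases Gpx3 and Gpx1, which reduce peroxides with glutathione outside and inside the cell, were both lower in CKD. Gpx3 was 44018, 49933, 36123 and 43306 FPKM in control mice 012811, 012822, 042301 and 042310, and 22958, 16464, 26582 and 26220 FPKM in CKD mice 021320, 022301, 110310 and 120102. The highest CKD mouse was below the lowest control mouse. The CKD mean was 53.2% of the control mean, and the log2 fold change was -0.93 (95% interval -1.62 to -0.23, adjusted p = 0.0212, limma). This call was lost without control mouse 012811 (adjusted p = 0.0521), control mouse 012822 (0.0575) or CKD mouse 022301 (0.0726).

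Gpx1 was 5392, 4923, 4252 and 5179 FPKM in the control mice and 2175, 2830, 4183 and 2202 FPKM in the CKD mice, in the same order of mice as for Gpx3. The groups did not overlap, but CKD mouse 110310, at 4183 FPKM, was close to control mouse 042301, at 4252 FPKM. The CKD mean was 57.7% of the control mean, with a log2 fold change of -0.84 (95% interval -1.33 to -0.35, adjusted p = 0.00522, limma).

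Sepp1 had the largest fold decrease of the 8. It was 7309, 7239, 4237 and 10910 FPKM in the control mice and 3226, 2261, 2697 and 1831 FPKM in the CKD mice. Control mice varied 2.57-fold among themselves, yet the lowest of them, 042301, was above every CKD mouse. The CKD mean was 33.7% of the control mean (log2 fold change -1.52, 95% interval -2.15 to -0.90, adjusted p = 0.000457, limma). Ccdc152 lies on the opposite strand and shares 439 bases with the Sepp1 transcript. It was listed at 0 to 0.376 FPKM in all mice.

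Sephs2 encodes the selenophosphate synthetase that activates selenium for selenocysteine synthesis and is itself a selenoprotein. Its levels were 363, 490, 423 and 334 FPKM in the control mice and 179, 98.4, 143 and 192 FPKM in the CKD mice. All CKD mice were well below the control range, and the CKD mean was 38.0% of the control mean. The log2 fold change was -1.42 (95% interval -1.85 to -0.99, adjusted p = 4.38e-05, limma), the smallest adjusted p of the 8. Gm44729, on the opposite strand, shares 792 bases with the transcript, and whether the quantification used strand is not given in the sources used here.

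Txnrd2, the thioredoxin reductase of mitochondria, was lower in CKD with overlapping groups. It was 20.8, 34.6, 59.1 and 27.9 FPKM in the control mice and 18.7, 21.6, 20.6 and 13.5 FPKM in the CKD mice. The highest control value belonged to mouse 042301, and the lowest, in mouse 012811, was below CKD mouse 022301. The log2 fold change was -0.82 (95% interval -1.40 to -0.24, adjusted p = 0.0152, limma), -0.55 without control mouse 042301 (adjusted p = 0.0418) and -0.68 without CKD mouse 120102 (adjusted p = 0.0505).

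Sepw1, which encodes a small thioredoxin-like selenoprotein of the cytosol, was the member that was higher in CKD. It was 98, 108, 166 and 89.2 FPKM in the control mice and 155, 246, 442 and 143 FPKM in the CKD mice. The groups overlapped only through control mouse 042301, which was above CKD mice 021320 and 120102. The CKD mean was 214% of the control mean, with a log2 fold change of 0.98 (95% interval 0.30 to 1.66, adjusted p = 0.0144, limma). This was 0.48 above the median of all genes, which itself was 0.50. Without CKD mouse 110310 the log2 fold change was 0.65 (adjusted p = 0.0375). In all 3 groups the mouse that stood apart had the highest Sepw1 level and the highest macrophage and erythroid marker sums, whose part in it was not tested. Without these 3 mice the remaining groups did not overlap, but 60.7% of all genes were then separated upward as well. The log2 fold change was 0.84 (adjusted p = 0.00172, limma).

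Selt, which encodes a thioredoxin-like selenoprotein of the endoplasmic reticulum, was 333, 222, 156 and 441 FPKM in the control mice and 334, 270, 142 and 296 FPKM in the CKD mice. The groups overlapped nearly completely, and the log2 fold change was -0.11 with a 95% interval from -0.81 to 0.60 (adjusted p = 0.783, limma). The mouse that stood apart had the lowest Selt level in each of the 3 groups, the opposite of Sepw1. Dio1 was 38.1, 27.6, 36.1 and 27 FPKM in the control mice and 35.2, 23.9, 40.5 and 18.9 FPKM in the CKD mice. Its log2 fold change was -0.16 with a 95% interval from -0.64 to 0.32 (adjusted p = 0.530, limma). These intervals include a fall to 0.57 of the control level for Selt and to 0.64 for Dio1. Both values were nevertheless below the median of all genes, by 0.61 and 0.66 on the log2 scale.

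Tested 1 gene at a time, without spread borrowed from other genes, the 4 separated transcripts (Gpx1, Gpx3, Sepp1 and Sephs2) each reached 0.0286, the smallest exact two-sided permutation p that 4 mice against 4 allow. Txnrd2 gave an exact permutation p of 0.0571 and Sepw1 of 0.0857, neither of which passes 0.05. Selt and Dio1 gave exact permutation p values of 0.83 and 0.54.

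How the mice are scaled to each other decided part of these calls. Control tables summed to 607951 to 707843 FPKM, CKD tables to 503438 to 603556 and CKD+Fe tables to 536139 to 572074. Sepp1, Sephs2 and Txnrd2 were lower in CKD under each of the 4 scalings tried. After median-of-ratios rescaling, which brought the median of all genes to 0.03, 6 members were lower and 0 were higher by limma, and 6 and 0 at an unadjusted p under 0.05. Of all genes, 28.7% were then lower and 29.5% higher. Sepw1 then had a log2 fold change of 0.43 (adjusted p = 0.272) and Dio1 of -0.70 (adjusted p = 0.0173). With quantile normalization 3 members were lower and 2 higher, against 25.6% and 23.3% of all genes. Gpx3 turned to 0.71 (adjusted p = 0.00706) and Gpx1 had -0.19 (adjusted p = 0.247). Quantile normalization gives each transcript the average value of its rank, and Gpx3 moved from rank 2 in every control mouse to rank 1 in 3 of 4 CKD mice.

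**Figure D3:**
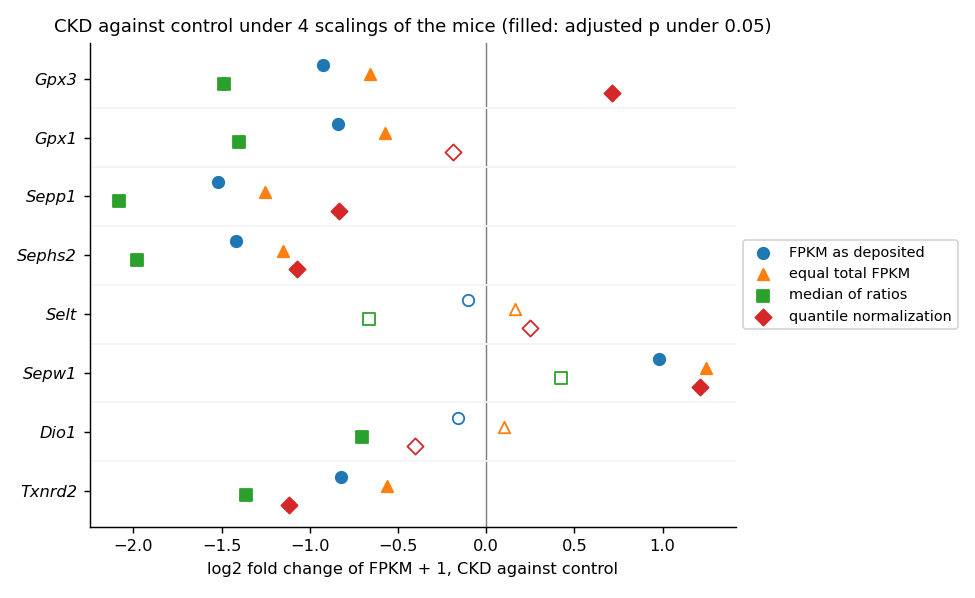
CKD against control (log2 fold change of FPKM + 1, horizontal axis) for each transcript under 4 scalings of the mice (marker shapes), filled where the adjusted p is under 0.05. Sepp1, Sephs2 and Txnrd2 are left of 0 and filled under each scaling. Gpx3 lies at 0.71 with quantile normalization, against -0.93 as deposited.

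CKD+Fe against CKD addresses what iron dextran changed in the diseased kidney. None of the 8 transcripts passed the test by limma, none had an unadjusted p under 0.05, and none was separated between the groups. Over all genes tested 0.00761% passed (1 gene; without adjustment, p was under 0.05 for 431 genes upward and 359 downward), and 2.43% were separated. The log2 fold changes of the members ran from -0.09 for Dio1 to 0.31 for Txnrd2, with a median of 0.09.

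Gpx3 was 16688, 32157, 30800 and 28410 FPKM in CKD+Fe mice 042702, 062910, 111710 and 122320. Of these mice 3 were above every CKD mouse, and mouse 042702, which stood apart, was near the lowest CKD mouse. The mean was 117% of the CKD mean, and the log2 fold change was 0.21 (95% interval -0.49 to 0.91, adjusted p = 0.988, limma). Without the 3 mice that stood apart the groups did not overlap, and the log2 fold change was 0.50 (adjusted p = 0.357, limma). Of all genes, 8.35% were then separated upward and 15.0% downward. Sepp1 was 2156, 3676, 3130 and 2770 FPKM in the CKD+Fe mice, within or just above the CKD range. Its log2 fold change was 0.23 (95% interval -0.39 to 0.86), and Txnrd2, at 28.6, 28, 18 and 19.1 FPKM, had 0.31 (95% interval -0.27 to 0.89).

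The other members were close to the CKD level. Gpx1 was 2790, 3156, 2281 and 2530 FPKM in the CKD+Fe mice and Sephs2 was 125, 168, 169 and 150 FPKM. The Sephs2 mean of 153 FPKM was 100.1% of the CKD mean, with an interval that allowed 0.76 to 1.39 times the CKD level. Sepw1 was 348, 235, 201 and 215 FPKM, Selt was 194, 265, 358 and 224 FPKM, and Dio1 was 31.1, 26.1, 29.8 and 20.3 FPKM. A p that misses the threshold does not show that the levels were equal. The widest intervals, those of Selt and Gpx3, reached 0.73 and 0.91 on the log2 scale.

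CKD+Fe against control addresses how far the iron-treated kidney remained from the control kidney, and it shares the control mice with the first comparison. Sephs2 (log2 fold change -1.38, adjusted p = 6.98e-05), Sepp1 (-1.29, adjusted p = 0.00170) and Gpx1 (-0.88, adjusted p = 0.00419) were lower and Sepw1 (1.12, adjusted p = 0.00730) was higher by limma. This made 3 members lower, against 11.0% of all genes, and 1 higher, against 54.4%. With quantile normalization the Sepp1 call was lost (-0.63, adjusted p = 0.0641), and with median-of-ratios rescaling that of Sepw1 (0.57, adjusted p = 0.148). With quantile normalization 22.6% of all genes were lower and 19.8% higher. The shares after median-of-ratios rescaling were 26.8% and 28.4%. As deposited, Gpx3 (-0.72, adjusted p = 0.0653) and Txnrd2 (-0.51, adjusted p = 0.109) did not pass here. Without control mouse 012811 Txnrd2 passed (-0.72, adjusted p = 0.0282), and without control mouse 042301 it was -0.24 (adjusted p = 0.353). Of the 8 members 4, Gpx3 among them, were lower in every CKD+Fe mouse than in any control mouse (9.82% of all genes), and Sepw1 was higher in every CKD+Fe mouse (50.3% of all genes). Gpx3 and Txnrd2 passed in CKD and not in CKD+Fe mice, but the difference between CKD+Fe and CKD itself did not pass for either, so they are not shown to differ between these groups.

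A ratio of 2 transcripts within a mouse stays nearly the same under any scaling by 1 factor per mouse, but not under quantile normalization, and 5 ratios were tested in the 3 comparisons. The ratio of Sephs2 to Sephs1, its paralog without selenocysteine, was 23.9, 39.9, 41.9 and 22.4 in the control mice and 10.3, 6.39, 14.1 and 10.2 in the CKD mice. In CKD+Fe mice it was 9.67, 11.8, 11.3 and 9.02, so both adenine groups lay below the control range. The difference in log2 ratio was -1.62 for CKD and -1.55 for CKD+Fe against control. Each had an exact permutation p of 0.0286, the smallest possible, and an adjusted p of 0.214 over the 15 tests. Because no exact p can be lower, passing after adjustment would need most of the 15 tests at that smallest value. The adjusted p therefore cannot decide on a single ratio, however large its difference.

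The other ratios overlapped between all groups. Gpx3 to Gpx1 was 8.79 ± 0.911 in the control group, 8.66 ± 3.03 under CKD and 10.2 ± 3.15 under CKD+Fe (SD, n = 4), with a wider spread in both adenine groups. The difference in log2 ratio was -0.09 for CKD against control (exact permutation p = 0.771, adjusted p = 0.83). Gpx1 to Gpx4, the phospholipid peroxidase, was 3.28 ± 0.685, 3.09 ± 0.488 and 2.25 ± 0.338 (exact permutation p = 0.0857 for CKD+Fe against CKD, adjusted p = 0.321). Sepw1 to Selt was 0.511 ± 0.387, 1.24 ± 1.26 and 1.05 ± 0.527, with the highest value of each group in the mouse that stood apart. Txnrd2 to Txnrd1, the cytosolic reductase, was 0.497 in control mouse 042301 and 0.0347 to 0.0730 in the other control mice.

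**Figure D4:**
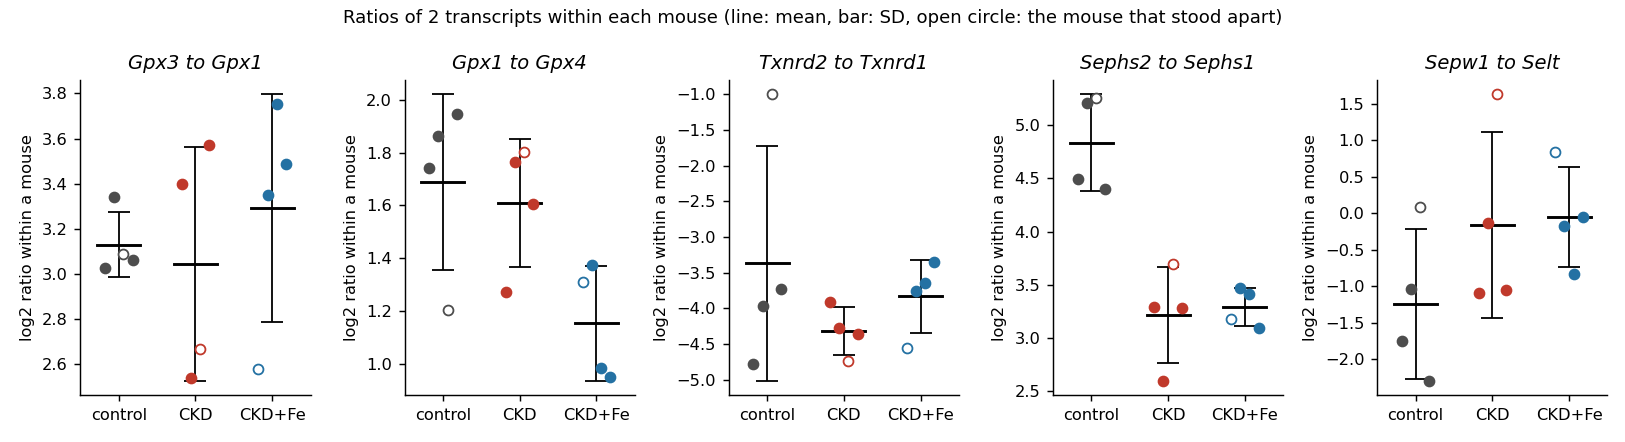
Log2 ratio of 2 transcripts within each mouse (vertical axes, not starting at 0) for 5 ratios in the control, CKD and CKD+Fe groups (4 circles per group, line for the mean, bar for the SD, open circle for the mouse that stood apart). Only Sephs2 to Sephs1 separates control mice from both adenine groups, by 1.62 and 1.55 on the log2 scale.

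The other selenoprotein genes were called in both directions. Of the 24 genes with an annotated selenocysteine codon 22 were tested, and 7 were lower and 5 higher in CKD by limma. Among the 14 tested genes outside the 8 members, 2 were lower and 4 were higher, with log2 fold changes from -0.78 to 2.81 and a median of 0.20. Of all genes 13.3% were lower and 54.6% higher, so the count of lower genes among the 14 was near that of all genes. With median-of-ratios rescaling the split over the 22 genes was 12 lower and 3 higher (28.7% and 29.5% of all genes), and with quantile normalization it was 4 lower and 6 higher (25.6% and 23.3%). In CKD+Fe against CKD none of the 22 passed by limma, and 2 had an unadjusted p under 0.05.

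Gpx4, the peroxidase of membrane phospholipids, was 1539 ± 239 FPKM in control and 914 ± 203 FPKM in CKD mice (SD, n = 4), with a log2 fold change of -0.76 (adjusted p = 0.00207, limma). Selo (now Selenoo), a mitochondrial protein, had -0.54 (adjusted p = 0.0198), and it kept its sign but not its call with quantile normalization (-0.22, adjusted p = 0.315) and with equal total FPKM (-0.27, adjusted p = 0.161). The rises were in less abundant transcripts. Sepn1 (now Selenon), a protein of the endoplasmic reticulum, was 9.38 ± 3.27 FPKM in control and 73.9 ± 32.0 FPKM in CKD mice (log2 fold change 2.81, adjusted p = 4.73e-05). Dio3, the deiodinase that inactivates thyroid hormone, was 0.0559 to 0.275 FPKM in the control mice and 1.84 to 4.53 FPKM in the CKD mice (log2 fold change 1.77, adjusted p = 9.32e-06, limma). No control mouse reached the 1 FPKM of the filter, so Dio3 was tested only through the adenine groups, where it was higher. Its call, and its place among the higher genes counted above, was thus largely set by the filter. Of the 3 deiodinases Dio3 was the one that passed. Ept1 (now Selenoi), an enzyme of phospholipid synthesis, rose by 1.48 (adjusted p = 0.000153), and 2700094K13Rik (now Selenoh) rose by 1.09 (adjusted p = 0.00228) on the log2 scale. Sepn1, Dio3 and Ept1 were called higher under each scaling tried, with the same limit from the filter for Dio3. The gene 2700094K13Rik kept its direction but not its call after median-of-ratios rescaling (0.54, adjusted p = 0.0899, limma).

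**Figure D5:**
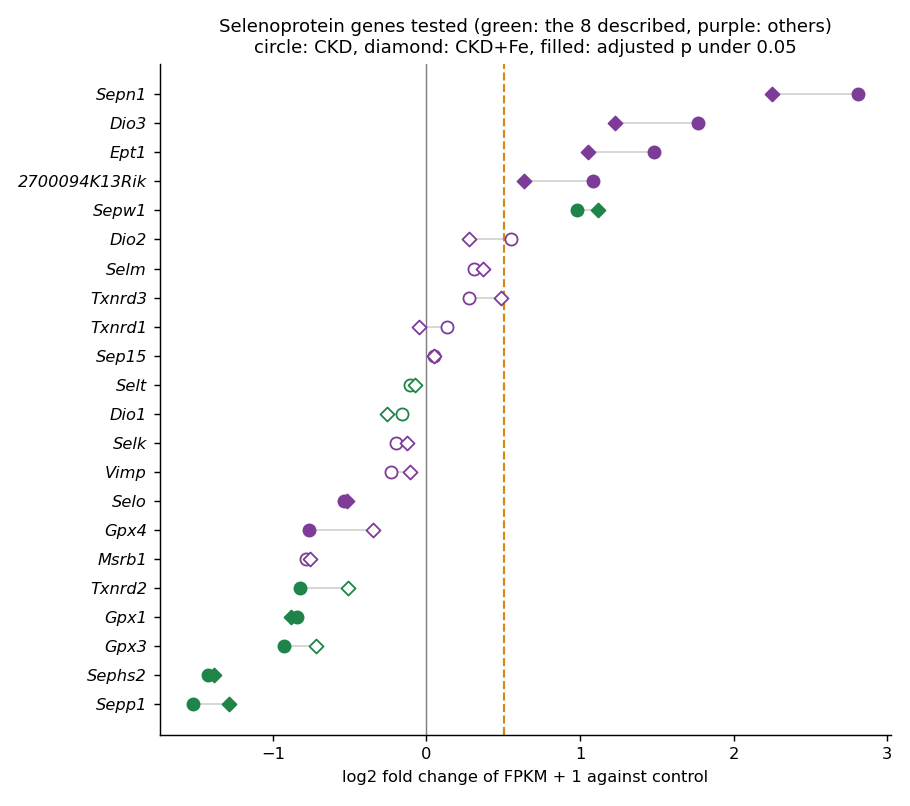
Log2 fold change of FPKM + 1 against control (horizontal axis) in CKD (circles) and CKD+Fe (diamonds) mice for the 22 selenoprotein genes tested, with the 8 described in green and the others in purple, filled where the adjusted p is under 0.05. Values run from -1.52 (Sepp1) to 2.81 (Sepn1) in CKD mice, and the dashed line is the median of all genes (0.50).

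Of 8 genes that make and insert selenocysteine 2 were lower, 1 was higher and 5 did not pass in CKD as deposited, against 13.3% and 54.6% of all genes. These counts depended on the scaling. With median-of-ratios rescaling 5 were lower and 0 higher, and with quantile normalization 4 were lower and 0 higher, where 28.7% and 25.6% of all genes were lower. Scly, the lyase that recycles selenium from selenocysteine, was 50.7 ± 2.92 FPKM in control and 26.1 ± 7.59 FPKM in CKD mice (SD, n = 4), with a log2 fold change of -0.97 (adjusted p = 0.000344, limma). Eefsec, the elongation factor for selenocysteine, had -0.79 (adjusted p = 0.000390) and is named here after its value was seen. Secisbp2, which binds the hairpin, had 0.49 (adjusted p = 0.0135), about the median of all genes, and turned to -0.01 and -0.16 with median-of-ratios rescaling and quantile normalization. Of the 5 genes of selenium transport and excretion 3 were lower and 2 higher as deposited, against 13.3% and 54.6% of all genes. Lrp8, 1 of the 2 higher genes, reached at most 0.300 FPKM in control mice and passed the filter only through the adenine groups. With quantile normalization its log2 fold change was -0.07 (adjusted p = 0.756, limma). Inmt, a methyltransferase that can methylate selenium for excretion, was 1303 ± 261 FPKM in control and 152 ± 111 FPKM in CKD mice (log2 fold change -3.36, adjusted p = 8.32e-05). Lrp1, a receptor of the same family as megalin, had 1.89 (adjusted p = 0.000148). Megalin itself (Lrp2), named after its value was seen, was 92.2 ± 29.5 FPKM in control and 29.1 ± 10.9 FPKM in CKD mice (log2 fold change -1.64, adjusted p = 0.000545).

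Glutathione and thioredoxin partners, relatives without selenocysteine and genes of thyroid hormone handling were compared next. Among these lists, only the partners were mostly lower in CKD as deposited. Of 10 glutathione and thioredoxin partner genes 9 were lower, 0 were higher and 1 did not pass in CKD by limma (9 in all at an unadjusted p under 0.05), against 13.3% of all genes lower. Gclm, the modifier subunit of the enzyme that starts glutathione synthesis, had a log2 fold change of -1.64 (adjusted p = 2.54e-06), and Prdx5, the most abundant of them, had -1.63 (adjusted p = 9.87e-06). Of 7 tested relatives without selenocysteine 3 were lower and 3 higher, against 13.3% and 54.6% of all genes. Msra, a reductase of oxidized methionine, had -1.46 (adjusted p = 8.88e-06), and Gpx7, a peroxidase of the endoplasmic reticulum, had 1.99 (adjusted p = 3.76e-05). Of 7 genes of thyroid hormone handling, 5 did not pass as deposited, and the number was 3 with median-of-ratios rescaling and 3 with quantile normalization. With quantile normalization 4 of the 7 were lower and 0 higher, where 25.6% and 23.3% of all genes were. Hr, a target of the hormone's receptor, had a log2 fold change of 1.01 (adjusted p = 0.000103, limma), which fell to 0.26 with quantile normalization and lost its call (adjusted p = 0.201). Its highest control value was 0.533 FPKM, so Hr too passed the filter only through the adenine groups.

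Profiles over the 12 mice were compared by the root mean square difference of centred log2(FPKM + 1) values, over all genes tested. The gene nearest to Gpx3 was Cyp2c44 (0.13) and then Aldh1l1 (0.15), against a median of 0.76 for all genes. Nearest to Gpx1 were Spr (0.15) and Fars2 (0.15), to Sepp1 Oxct1 (0.19) and Acss2 (0.23), and to Sephs2 Selenbp1 (0.19) and BC025446 (0.21). Nearest to Sepw1 were Rhog (0.16) and Eva1b (0.18). Selt was nearest to Itgb8 (0.13) and Ubxn2a (0.18), Dio1 to Plek2 (0.17) and Gpr162 (0.17), and Txnrd2 to Mrps28 (0.24) and Smpd2 (0.24). No member was among the nearest pair of another. The low distances of Dio1 are to transcripts of 1.95 to 2.65 FPKM, where adding 1 to each value flattens the profile.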

How the data were processed

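Whole kidney RNA of 12 mice was sequenced as stranded mRNA libraries with single-end reads of 50 cycles. The submitters' processing notes name bcl2fastq 2.19, STAR 2.5.2, Cufflinks 2.1.1 and GRCm38. The authors deposited 1 FPKM value per gene and mouse, with a status for each; 30 failed values in 17 genes were set to missing, and all 96 values of the 8 members had a valid status. FPKM are scaled to the mapped reads of each mouse, so levels are relative to the other transcripts of that mouse. The authors tested read counts, which were not used here. A count test does not apply to FPKM.

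Values were analysed as log2(FPKM + 1), which understates changes of low transcripts, with limma 3.58.1 in R 4.3.3 (variance trend, all 12 mice in 1 fit). Genes had to reach 1 FPKM in 4 or more mice, which 13148 did, and Benjamini-Hochberg adjustment of the two-sided p values ran over all of them. Single members and within-mouse ratios were tested by exact two-sided permutation over 70 arrangements. Nothing in the labels states a batch. On simulated data for CKD against control, 178 of 200 changes among 11892 genes were recovered (99 of 99 of 4-fold and 79 of 101 of 2-fold, 0 with the wrong sign), with 14 false calls. The simulation held no shift of most genes and no mouse that stood apart, and its changes were only in genes above a set control level. These rates therefore check the code and do not carry over to the calls made here.

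The depth of each mouse was estimated from the smallest FPKM steps in genes listed with a single transcript, after 200 bases were taken off the transcript length. Sequences, positions and shared stretches came from GENCODE M21 on GRCm38, and protein sequences were not used here. Genes were found in the table under their current or an older symbol. The members and the gene lists were chosen with earlier results of these data known. The 8 members were named in full. Other selenoprotein genes were named where they passed the threshold in CKD against control, other lists by their largest change each way and most abundant gene, and for each member the 2 nearest profiles. Values of 2 other genes are not reported here. Alternatives were a pseudocount of 0.1, no filter, a mean of at least 5 FPKM, quantile normalization, median-of-ratios rescaling, a fit of only the 2 groups compared, array quality weights, no variance trend, an adjusted p under 0.5 (the cutoff in the methods of the study), and each mouse left out in turn. Scaling to an equal total FPKM and the permutation tests without the 3 mice that stood apart were added after seeing the data.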

Additional observations from a re-analysis of the deposited data

How the results depend on the processing

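Each member was refitted under 19 alternatives in each comparison. Sepp1 and Sephs2 kept their direction and call in CKD against control under all 19, with log2 fold changes from -2.08 to -0.84 and from -1.98 to -1.07. Txnrd2 ran from -1.36 to -0.55 and lost its call 1 time, and Gpx1 ran from -1.40 to -0.19 and lost it with quantile normalization. Gpx3 ran from -1.49 to 0.71 and lost its call without the filter on low values (adjusted p = 0.567; the cause was not tested) and with 3 of the 8 mice left out in turn. No member passed in CKD+Fe against CKD under any alternative.

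In CKD against control, quantile normalization gave 3 members lower and 2 higher (25.6% and 23.3% of all genes), with 1 member separated upward (19.6% of all genes), and turned Gpx3 to 0.71 (adjusted p = 0.00706) and Selt to 0.25. Median-of-ratios rescaling gave 0 members higher. In CKD+Fe against control, median-of-ratios rescaling gave 6 lower and 0 higher (26.8% and 28.4% of all genes) with 0 separated upward (26.2%), an adjusted p under 0.5 gave 6 lower (18.2%), and quantile normalization gave 2 higher (19.8%) with 2 separated upward (20.5%), Gpx3 at 0.95 (adjusted p = 0.00138) and Selt at 0.21. In that comparison Sepp1 lost its call with quantile normalization (-0.63, adjusted p = 0.0641), and Gpx3 passed with array quality weights (-0.65, adjusted p = 0.00916). Without the 3 mice that stood apart, 1 member (Sepw1) was separated upward in CKD against control (60.7% of all genes) and 1 (Gpx3) in CKD+Fe against CKD (8.35%). With 3 mice against 3 an exact two-sided p cannot go below 0.1.

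The other changes of sign were in differences that did not pass the test. With equal total FPKM, Selt was 0.16 and Dio1 0.098 in CKD against control, Selt was 0.15 in CKD+Fe against control, and Selt was -0.0094 and Sephs2 -0.00087 in CKD+Fe against CKD. In CKD+Fe against CKD, quantile normalization gave -0.036 for Selt and -0.047 for Sephs2. Array quality weights gave 0.079 for Gpx1, -0.068 for Selt and -0.0051 for Sephs2 there, and leaving out the 3 mice that stood apart gave 0.14 for Gpx1 and -0.11 for Selt. With each mouse left out in turn, CKD against control ran from -0.36 to 0.16 for Selt and from -0.33 to 0.025 for Dio1, and CKD+Fe against control ran from -0.33 to 0.16 for Selt. CKD+Fe against CKD then ran from -0.15 to 0.16 for Gpx1, from -0.073 to 0.47 for Sepw1, from -0.24 to 0.17 for Selt, from -0.16 to 0.16 for Sephs2 and from -0.28 to 0.072 for Dio1. The difference of medians gave 0.14 for Txnrd2 to Txnrd1 in CKD+Fe against control. No within-mouse ratio passed under any alternative tested. With so few mice, adjustment over 15 tests leaves a single ratio no way to pass, so this does not show that the ratios were equal.

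No paired analysis was possible because the groups share no mouse numbers. Estimated counting error was at most 4.25% for every member, below the spread between mice, and values near 0 are not shown to be unchanged.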
